A study of Homo sapiens with 6 samples.

Results

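The 9 cytokine genes TNF, LTB, IL1A, IL1B, IL23A, IL32, CSF1, CSF2 and CSF3 were taken by name, with every probe annotated to them. CSF2 had no annotated probe and was not analysed here. The other 8 genes were 8 of 19090 genes named by the platform annotation and had 13 of 28264 probes: 4 for IL32, 3 for CSF1 and 1 for each of the rest. H358 is an established human bronchioalveolar carcinoma cell line. It was studied as an H358 line that expresses YAP(5SA), a mutant of the Hippo pathway coactivator YAP that escapes inhibitory phosphorylation, and as an H358 line with GFP, labelled as the control. Each line was given vehicle, IL-1b or TNFa for 60 min, and each of these 6 conditions was measured on 1 array. The series title asks which genes YAP targets under TNFa or IL-1b. The dose is left out because its unit in the labels (g/ml) is implausible, and the labels do not say what drives YAP(5SA) or whether a line is 1 clone.

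TNF and IL-1 are alarm cytokines that bind different receptors and converge on the kinases that release NF-kB and activate AP-1. Their own genes and those of other cytokines are among the early targets of these factors, so that a stimulated epithelial cell passes the signal on. TNF and lymphotoxin beta (LTB) belong to the TNF superfamily, IL1A and IL1B encode the agonists of the IL-1 receptor, and IL23A encodes the subunit that joins IL12B to form IL-23. IL32 encodes a cytokine with several splice forms, and the CSF genes encode the growth factors of macrophages (CSF1), granulocytes and macrophages (CSF2) and neutrophils (CSF3).

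The promoters of the 5 genes that passed the test with IL-1b at 60 min are shown. The calls of IL1A and IL32 depended on the processing, as given below. Each run holds 300 bases of GRCh38.p14 from RefSeq, from 250 before to 50 after a transcription start, in the direction of the gene. The windows are chr6:31575315-31575614 on the plus strand for TNF, chr6:31582376-31582675 on the minus strand for LTB, chr12:56338634-56338933 on the plus strand for IL23A, chr16:3065153-3065452 on the plus strand for IL32 and chr2:112784444-112784743 on the minus strand for IL1A. Capitals mark matches on either strand to GGGNNNNNCC, a loose NF-kB-like motif, to TGACTCA, the AP-1 motif, to GGAATG, a TEAD-like motif, and to TATAAA.
TNF: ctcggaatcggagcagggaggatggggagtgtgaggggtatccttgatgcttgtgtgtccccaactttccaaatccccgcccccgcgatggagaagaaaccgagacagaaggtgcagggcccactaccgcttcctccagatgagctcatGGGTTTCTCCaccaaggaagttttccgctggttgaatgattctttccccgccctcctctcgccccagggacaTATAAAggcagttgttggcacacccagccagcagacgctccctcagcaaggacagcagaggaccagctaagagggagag
LTB: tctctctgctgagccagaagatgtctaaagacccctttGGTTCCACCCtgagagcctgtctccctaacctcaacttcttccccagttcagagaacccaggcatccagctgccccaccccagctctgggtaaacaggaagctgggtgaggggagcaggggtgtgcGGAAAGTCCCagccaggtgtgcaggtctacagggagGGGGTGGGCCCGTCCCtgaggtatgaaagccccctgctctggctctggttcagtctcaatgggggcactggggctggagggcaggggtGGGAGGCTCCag
IL23A: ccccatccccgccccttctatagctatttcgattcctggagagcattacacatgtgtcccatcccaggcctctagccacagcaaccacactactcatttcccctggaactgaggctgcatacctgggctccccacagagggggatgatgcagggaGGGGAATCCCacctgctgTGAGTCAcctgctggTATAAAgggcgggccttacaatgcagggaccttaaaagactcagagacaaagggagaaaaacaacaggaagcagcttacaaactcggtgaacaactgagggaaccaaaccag
IL32: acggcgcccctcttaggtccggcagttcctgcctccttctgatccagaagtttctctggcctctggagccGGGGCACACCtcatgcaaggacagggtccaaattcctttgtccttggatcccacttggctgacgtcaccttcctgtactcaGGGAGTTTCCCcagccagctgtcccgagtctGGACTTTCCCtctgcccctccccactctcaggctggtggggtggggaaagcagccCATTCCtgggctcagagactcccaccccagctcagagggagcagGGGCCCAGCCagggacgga
IL1A: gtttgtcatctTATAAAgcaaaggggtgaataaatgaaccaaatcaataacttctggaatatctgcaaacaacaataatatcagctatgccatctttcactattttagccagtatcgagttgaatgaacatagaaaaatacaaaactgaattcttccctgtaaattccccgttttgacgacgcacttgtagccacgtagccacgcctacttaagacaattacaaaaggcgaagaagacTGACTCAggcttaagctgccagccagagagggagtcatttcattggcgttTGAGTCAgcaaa

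The TNF window held 1 NF-kB-like match, at bases -101 to -92, and TATAAA at -29 to -24. The LTB window held 8 NF-kB-like matches, 5 of which overlap one another between -50 and -35. In IL23A the NF-kB-like match at -95 to -86 reads on both strands, and a match to AP-1 follows at -77 to -71. The first IL32 window held 5 NF-kB-like matches and 1 match to the TEAD-like motif. IL1A had no NF-kB-like match and 2 AP-1 matches, at -12 to -6 and 39 to 45 from the first of its 2 annotated starts. The NF-kB-like letters stood in 58.7% of all 35116 promoter windows, the AP-1 letters in 4.95%, the TEAD-like letters in 14% and TATAAA in 11.5%. A match to the first of these is therefore found in most promoters. IL1B held 0 matches to the 4 motifs, CSF2 held 1 NF-kB-like match, and CSF1 and CSF3 were not searched.

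**Figure D1:**
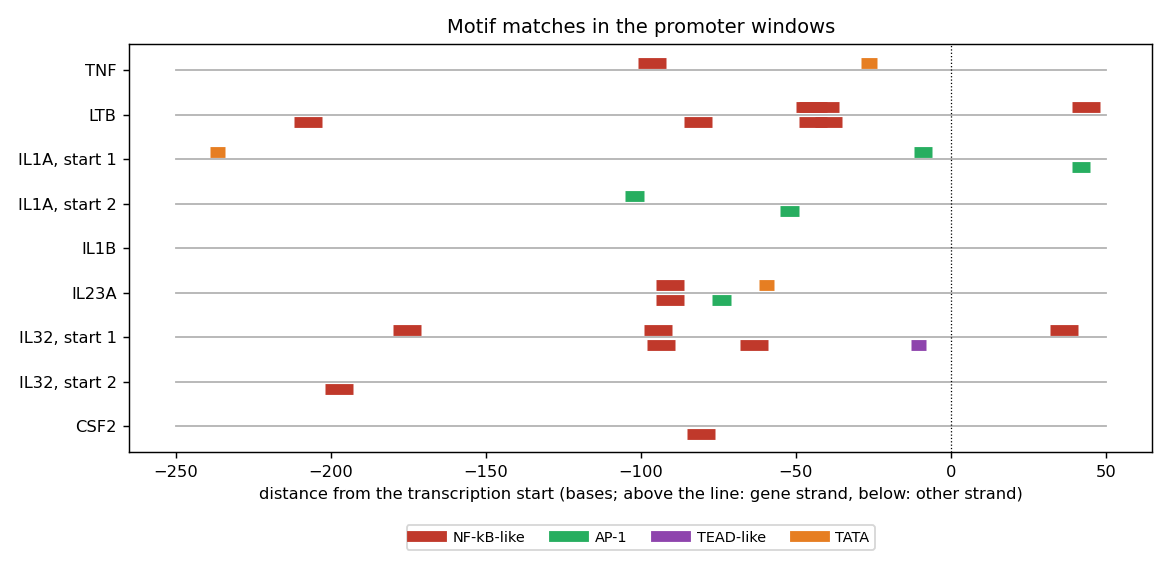
Matches to 4 motifs in the promoter windows of 7 of the 9 cytokine genes, by distance from the transcription start in bases; blocks above a line lie on the strand of the gene and blocks below it on the other. LTB has 8 NF-kB-like matches and IL1B none of the 4 motifs. Starts 1 and 2 are the RefSeq starts of IL1A and IL32; the second LTB start lies next to the first and is not drawn.

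Across the 6 arrays the median intensity over all probes ran from 335.2 to 398.1. The brightest YAP1 probe read 3244, 5052 and 4309 in the YAP(5SA) line under vehicle, IL-1b and TNFa, against 7663, 7534 and 5618 in the GFP line. It was thus dimmer on every array of the line labelled YAP(5SA) (-0.73 ± 0.21, adjusted p = 0.0120, limma), and directions below rest on that label. The position of the probe in the transcript is unknown, so it may not see the transgene. Of 8 markers of lung epithelium, 3 or 4 lay above the array median. KRT18, KRT7 and CDH1 were at or above the 85.5th percentile of named probes on every array, and KRT8 lay between the 44.6th and the 58.6th. EPCAM stayed at or below the 49.5th percentile, KRT19 at or below the 44.9th, and the lung markers NKX2-1 and SFTPB at or below the 36.4th. Among leukocyte markers PTPRC, LYZ and CD3E read at most 36.9, 22.7 and 33.5. In contrast, CD3D read 2152 to 2937 and CD68 1285 to 1835, at or above the 75.1st and the 68.3rd percentile. Between 3 and 5 of the 9 leukocyte markers lay above the array median. Their summed intensity was 5244 to 6777 in the YAP(5SA) line and 8239 to 9366 in the GFP line, and CD14 alone ranged from 982.1 to 3613. Of 5 fibroblast markers 1 lay above it, and of 4 endothelial markers at most 1. Fold changes below are on the scale of log2(intensity + 16), which understates the change of dim probes. They come from a limma fit of treatment and line over 12350 genes, with Benjamini-Hochberg adjusted p-values. No condition was repeated and nothing says that the pairs are separate cultures. The p-values therefore set differences against their variation between pairs of arrays. That spread came mostly from all genes, with 34.3 prior against 2 residual degrees of freedom, and may be technical only. The residual SD of TNF was 0.57 and that of IL1A 0.76, where the fit used 0.28 and 0.31. All 8 genes with a probe passed the filter on dim probes. TNF, IL1A and IL1B were below its limit of 206.0 on both vehicle arrays and passed through cytokine arrays, IL1A and IL1B just inside it at the 40.9th and 40.8th percentile by mean. Probe 4 of IL32 and probe 3 of CSF1 were below it.

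With IL-1b, 5 of the 8 genes rose: TNF, IL23A, LTB, IL1A and IL32. With TNFa, 3 rose: TNF, LTB and IL23A. No gene of the 8 fell with either cytokine. Over all genes 1.32% were called higher with IL-1b and 0.688% with TNFa. The 8 genes were chosen with earlier results of these data known. The shares given here and below therefore do not measure how unusual their counts are. The median response of the 8 genes was 1.29 with IL-1b and 0.66 with TNFa, against 0.03 and -0.05 over all genes. Lower calls made up 1.04% of all genes with IL-1b and 0.081% with TNFa. With no filter on dim probes, 3 of the 8 were called with IL-1b (TNF, LTB and IL23A) and 2 with TNFa (TNF and LTB), where 0.262% and 0.152% of 19090 genes were called higher. On 6 of the 8 probes, those of TNF, LTB, IL1B, IL23A, IL32 and CSF1, all 4 cytokine arrays lay above both vehicle arrays, which 4.37% of all genes did. The reverse, all 4 below both, held for 0 of the 8 and for 6.64% of all genes. TNF and IL1B had passed the filter on dim probes through cytokine arrays, which favours the first of these orders. IL1B met that order only by 192.9 against 192.8. The vehicle arrays are shared by the IL-1b and TNFa responses, so these are not independent of each other.

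**Figure D2:**
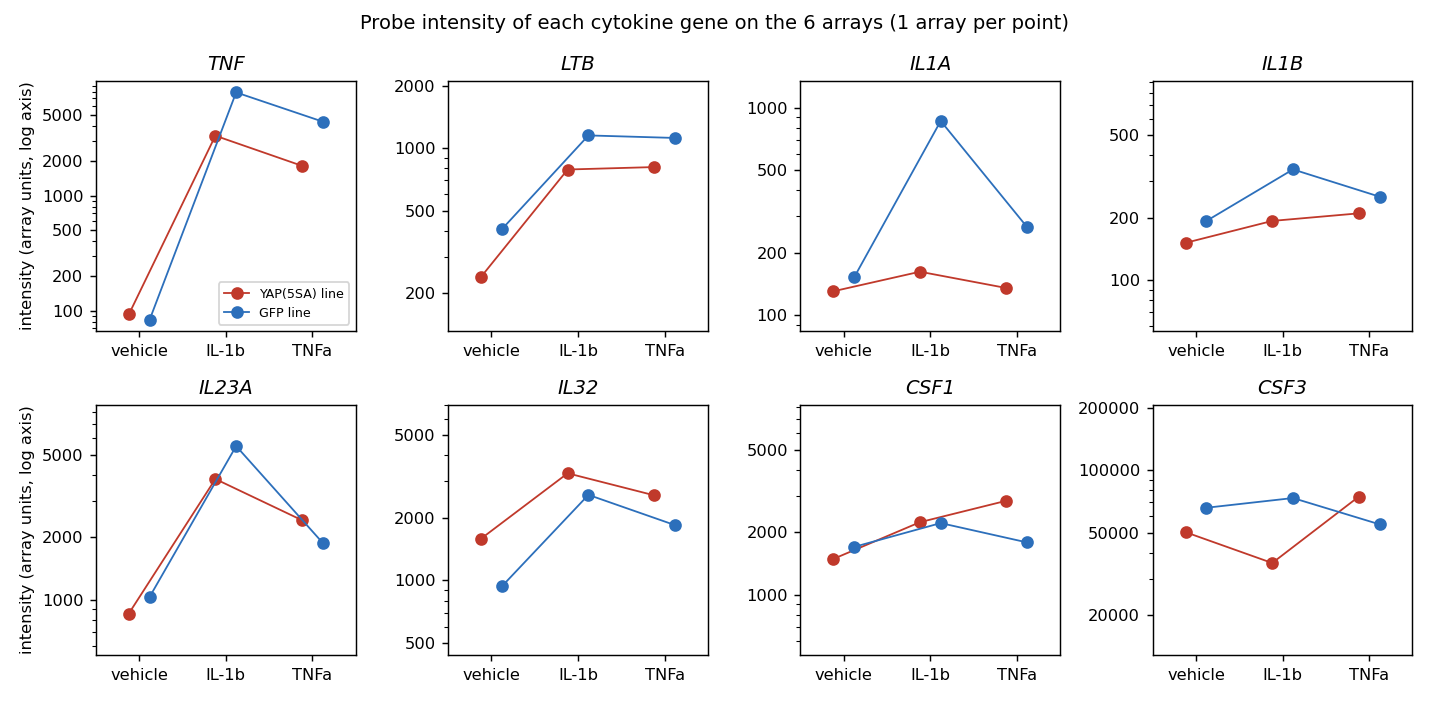
Intensity (array units, log axis) of the brightest probe of each of 8 cytokine genes on the 6 arrays, by treatment; red is the YAP(5SA) line and blue the GFP line, each point is 1 array, and lines join the arrays of a line for the eye. TNF is at 92.4 and 83.0 under vehicle and at 1814 or more on all 4 cytokine arrays, IL1A reads 861.4 on the IL-1b array of the GFP line and 265.1 or less elsewhere, and CSF3 is bright throughout.

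TNF, the founding ligand of its family, had the largest response of the 8 genes to each cytokine. Its probe read 3313 with IL-1b, 1814 with TNFa and 92.4 with vehicle in the YAP(5SA) line. In the GFP line it read 7887 with IL-1b, 4394 with TNFa and 83.0 with vehicle. The vehicle readings lay at the 26.7th and 23.9th percentile of named probes and the cytokine readings between the 72.5th and the 88.6th, so the groups were far apart. The mean response was 5.63 ± 0.28 with IL-1b (limma SE, 2 pairs, adjusted p = 1.5e-17), a 49.5-fold change and rank 3 of 12350. With TNFa it was 4.78 ± 0.28 (limma SE, 2 pairs, adjusted p = 2.0e-15), 27.4-fold and again rank 3. All 6 fits that left out an array kept both calls. Ordered by level, the conditions ran from IL-1b and TNFa in the GFP line through IL-1b and TNFa in the YAP(5SA) line to the vehicle arrays. Every neighbouring step exceeded the fitted SD of 0.28, which is moderated by the prior, except that between the vehicle arrays, 0.13. The step of 0.41 from TNFa in the GFP line to IL-1b in the YAP(5SA) line was under the residual SD of TNF itself, 0.57.

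LTB, which anchors lymphotoxin alpha at the cell surface, rose with both cytokines. It read 788.6 with IL-1b, 810.3 with TNFa and 240.1 with vehicle in the YAP(5SA) line. In the GFP line it read 1151, 1119 and 406.9 under the same treatments. All cytokine arrays stood above the vehicle arrays, and within a line the IL-1b and TNFa arrays were nearly level. The response was 1.56 ± 0.25 with IL-1b (adjusted p = 0.000101, limma) and 1.56 ± 0.25 with TNFa (adjusted p = 0.000136, limma). The IL-1b call was lost without the IL-1b array of the YAP(5SA) line (1.53, adjusted p = 0.0558). The direct difference between the cytokines was 0.00, with a 95% interval of -0.51 to 0.51.

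IL23A showed the next largest response to IL-1b. The probe read 3820 with IL-1b, 2420 with TNFa and 859.8 with vehicle in the YAP(5SA) line. In the GFP line it read 5503, 1882 and 1033. IL-1b gave the highest array in each line and vehicle the lowest. The response was 2.26 ± 0.26 with IL-1b (adjusted p = 1.2e-07, limma), 4.80-fold, and 1.17 ± 0.26 with TNFa (adjusted p = 0.0126, limma), 2.24-fold. The TNFa call was lost without either vehicle array and without the TNFa array of the YAP(5SA) line (0.79, adjusted p = 0.390). It was also lost when dim probes were kept (adjusted p = 0.178) and with the mean of all probes (adjusted p = 0.0837). As IL23A has 1 probe, its response was the same in both settings, and only the spread and the adjustment drawn from all genes changed. IL12B, whose product pairs with that of IL23A, was below the filter on dim probes.

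IL1A encodes an IL-1 that is active without cleavage, whereas the product of IL1B has to be cut by caspase-1. IL1A read 162.1 with IL-1b, 135.2 with TNFa and 130.5 with vehicle in the YAP(5SA) line. In the GFP line it read 861.4, 265.1 and 152.2. The IL-1b array of the GFP line stood apart from all others. The mean response to IL-1b was 1.33 ± 0.31 (adjusted p = 0.0118, limma), made up of 0.28 in the YAP(5SA) line and 2.38 in the GFP line. Without the IL-1b array of the GFP line it was 0.46 (adjusted p = 0.973), without the vehicle array of that line 0.63 (adjusted p = 0.251). The adjusted p was 0.234 when dim probes were kept and 0.136 with the mean of all probes. As IL1A has 1 probe, its response was the same in both settings. Only the spread and the adjustment drawn from all genes changed. The TNFa response was 0.39 with an adjusted p of 0.999 (95% interval -0.23 to 1.01). IL1B read 192.9, 209.8 and 151.3 with IL-1b, TNFa and vehicle in the YAP(5SA) line, against 341.3, 252.3 and 192.8 in the GFP line. These values span the 35.6th to the 46.6th percentile of named probes, and the lowest cytokine array, 192.9, lay barely above the higher vehicle array, 192.8. Neither response passed the test: 0.55 with IL-1b (adjusted p = 0.295, limma, 95% interval 0.03 to 1.06) and 0.40 with TNFa (adjusted p = 0.999, limma).

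IL32 was read by 4 probes that did not give the same answer. The brightest read 3279 with IL-1b, 2568 with TNFa and 1589 with vehicle in the YAP(5SA) line. In the GFP line it read 2581, 1846 and 936.4. All cytokine arrays were above the vehicle arrays. It gave 1.24 ± 0.25 with IL-1b (adjusted p = 0.00292, limma) and 0.83 ± 0.25 with TNFa (adjusted p = 0.189, limma). The other 3 probes gave IL-1b responses of -0.28, 0.59 and 0.56 and TNFa responses of 0.50, 0.62 and 0.25, and none of them passed the test in a fit of every named probe, in which the brightest probe had an adjusted p of 0.112 with IL-1b. With the mean of all probes above the filter the IL-1b response of IL32 was 0.52 (adjusted p = 0.332), and the call was also lost without either IL-1b array (1.38 and 1.11, adjusted p = 0.160 and 0.412) and when dim probes were kept (adjusted p = 0.0776). Which splice forms each probe reads is not known here.

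The colony-stimulating factors did not pass the test for either cytokine. CSF1, the growth factor of macrophages, read 2239 with IL-1b, 2841 with TNFa and 1490 with vehicle in the YAP(5SA) line on its brightest probe. In the GFP line it read 2217, 1789 and 1703. The arrays of the GFP line stayed close together, and TNFa gave the highest array in the YAP(5SA) line. The response was 0.48 with IL-1b (adjusted p = 0.378, limma, 95% interval -0.05 to 1.01) and 0.50 with TNFa (adjusted p = 0.999, limma, 95% interval -0.03 to 1.02). The second probe gave 0.52 and 0.47, and both probes differed by line with TNFa, with 0.92 and 1.03 in the YAP(5SA) line against 0.07 and -0.08 in the GFP line. The third probe, at the 30.3rd percentile by mean, gave 0.21 and 0.03. CSF3 read 35707, 74510 and 50236 with IL-1b, TNFa and vehicle in the YAP(5SA) line, against 73358, 54816 and 65874 in the GFP line. These values lay between the 97.2nd and the 98.8th percentile on every array, so that its single probe was bright in unstimulated cells, and the responses were -0.17 with IL-1b (adjusted p = 0.808, limma, 95% interval -0.73 to 0.39) and 0.15 with TNFa (adjusted p = 0.999, limma, 95% interval -0.41 to 0.71). No other probe of CSF3 was there to compare, and whether this one reads CSF3 alone was not tested.

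**Figure D3:**
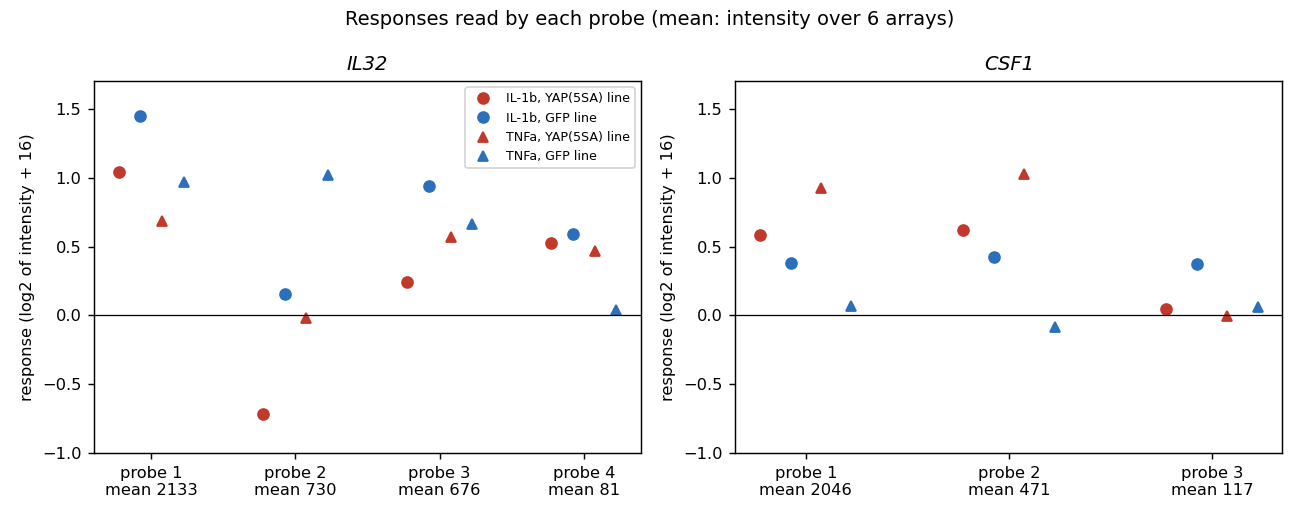
Response (log2 of intensity + 16) to IL-1b (circles) and TNFa (triangles) in the YAP(5SA) line (red) and the GFP line (blue), for each of the 4 probes of IL32 and the 3 probes of CSF1, with the mean intensity of the probe over the 6 arrays. Probe 1 of IL32 is above 0 in all 4 pairs while probe 2 is at -0.72 with IL-1b in the YAP(5SA) line; probes 1 and 2 of CSF1 follow each other.

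IL-1b and TNFa were compared directly in the same fit. Their difference was largest for IL23A, 1.10 ± 0.26 in favour of IL-1b (adjusted p = 0.0742, limma), followed by IL1A with 0.94 ± 0.31 (adjusted p = 0.175, limma) and TNF with 0.85 ± 0.28 (adjusted p = 0.186, limma). By limma 0 of the 8 genes passed the adjusted threshold, against 0.0243% of all genes. These 3 had an unadjusted p under 0.05, as did 12.4% of all genes. The IL-1b array of IL23A exceeded the TNFa array in both lines, 3820 against 2420 in the YAP(5SA) line and 5503 against 1882 in the GFP line. It passed the test with the dimmest 60% of probes left out (adjusted p = 0.0200), with a pseudocount of 64 (adjusted p = 0.0468), with a trended and robust prior (adjusted p = 0.0113), without either vehicle array (adjusted p = 0.0415) and without the TNFa array of the YAP(5SA) line (1.47, adjusted p = 0.00196). IL1A passed without the IL-1b array (1.82, adjusted p = 0.0150) or the TNFa array (1.12, adjusted p = 0.0291) of that line. Over all alternatives the adjusted p of IL23A ran from 0.00196 to 0.904.

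The basal level of TNF was 92.4 in the YAP(5SA) line and 83.0 in the GFP line, a difference of 0.13 that is under the fitted SD. Under the cytokines its difference between the lines was -1.25 with IL-1b and -1.27 with TNFa. Averaged over the 3 pairs, 3 of the 8 genes were lower in the YAP(5SA) line and 0 higher by limma, against 8.91% of all genes called lower and 7.9% called higher. The median line difference of the 8 genes was -0.39, against -0.01 over all genes. When dim probes were kept, 1 of the 8 was called lower (IL1A), against 5.43% of all genes. At an unadjusted p under 0.05, 4 were lower and 1, IL32, was higher, against 13.8% and 12.6% of all genes. The 3 genes were IL1A (-1.13 ± 0.25, adjusted p = 0.000780), TNF (-0.80 ± 0.23, adjusted p = 0.0119) and LTB (-0.57 ± 0.20, adjusted p = 0.0483).

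The 3 pairs behind each average were not alike. For IL1A the vehicle pair gave -0.20, the IL-1b pair -2.30 and the TNFa pair -0.89, and without the IL-1b pair it was -0.55 (adjusted p = 0.486). TNF lost its call without the IL-1b pair (-0.57, adjusted p = 0.446), without the TNFa pair (-0.56, adjusted p = 0.0940), with median centring (-0.71, adjusted p = 0.0506) and when dim probes were kept (adjusted p = 0.101). On the 4 cytokine arrays alone, TNF gave -1.26 (adjusted p = 0.000204, limma) and IL1A -1.60 (adjusted p = 7.6e-05, limma). This choice was made after seeing the data. It repeats the values of the planned fits without a vehicle array, so it is no further result. LTB gave -0.72 in the vehicle pair, -0.54 in the IL-1b pair and -0.46 in the TNFa pair. Its call was lost in all 6 fits that left out an array, from -0.63 to -0.50 (adjusted p from 0.0501 to 0.407, limma). Leaving out either array of a pair gives the same line difference, so the 6 fits hold 1 result per pair. The LTB call was also lost with quantile normalization (adjusted p = 0.0617), with median centring (adjusted p = 0.0716), when dim probes were kept (adjusted p = 0.108) and with a pseudocount of 64 (adjusted p = 0.0559).

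Among the remaining genes, IL1B gave -0.45 (adjusted p = 0.153) and was below the GFP line in all 3 pairs, as were LTB and IL1A, which 21.4% of all genes were. IL32 gave 0.52 (adjusted p = 0.0792) on its brightest probe and was above the GFP line in all 3 pairs, as were 22.5% of all genes. It passed the test with quantile normalization (adjusted p = 0.0460) and with median centring (0.61, adjusted p = 0.0260), while the mean over its probes gave 0.22. IL23A (-0.14), CSF1 (0.16) and CSF3 (-0.33) did not pass the test. The sign of IL23A and CSF3 changed under TNFa (0.36 and 0.44). CSF1 gave -0.19 with vehicle, 0.01 with IL-1b and 0.66 with TNFa, and its second probe averaged -0.18. Without the TNFa pair CSF3 passed the test (-0.71, adjusted p = 0.0216). The summed leukocyte marker signal, 5244 to 6777 in the YAP(5SA) line and 8239 to 9366 in the GFP line, was also lower in the YAP(5SA) line, and its part in these differences was not tested. Fewer expressing cells and less RNA per cell cannot be told apart in these arrays.

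**Figure D4:**
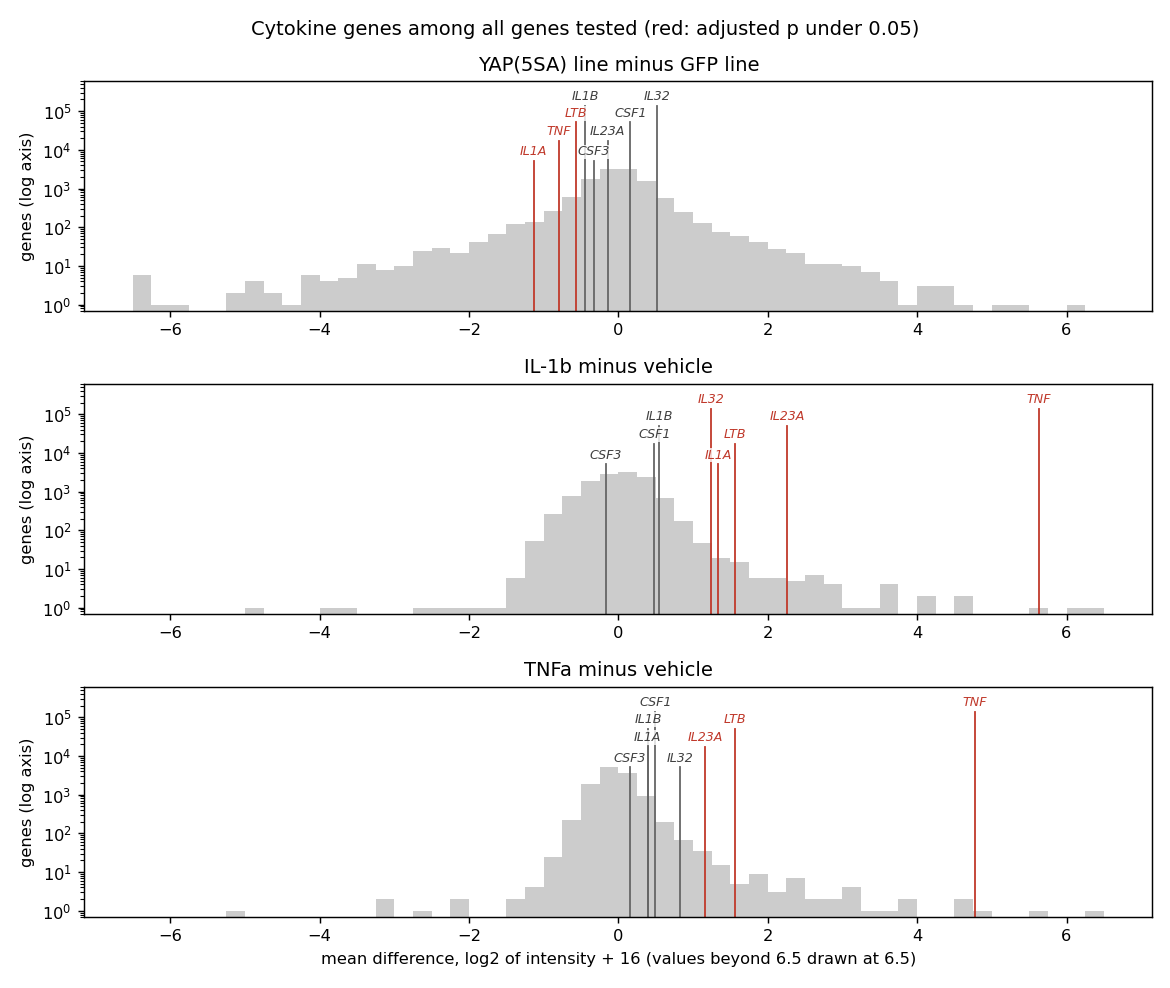
Position of the 8 cytokine genes among all 12350 genes tested (grey histogram, counts on a log axis) for the YAP(5SA) line minus the GFP line, IL-1b minus vehicle and TNFa minus vehicle, as mean log2 differences; red marks an adjusted p under 0.05. TNF lies at 5.63 and 4.78 with the cytokines, whereas between the lines the 8 genes lie from -1.13 to 0.52.

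The response itself, cytokine against vehicle within a line, was set between the lines by size, since each is 1 pair of arrays. The response of TNF to IL-1b was 4.94 in the YAP(5SA) line and 6.32 in the GFP line, and to TNFa 4.08 in the YAP(5SA) line and 5.48 in the GFP line. The difference in response, YAP(5SA) minus GFP, was thus -1.38 with IL-1b and -1.40 with TNFa. IL1A responded to IL-1b by 0.28 in the YAP(5SA) line and 2.38 in the GFP line, a difference of -2.10, and to TNFa by 0.05 and 0.74. The other genes differed by less than 1: LTB responded to IL-1b by 1.65 in the YAP(5SA) line and 1.46 in the GFP line, and to TNFa by 1.69 and 1.42. With TNFa, IL23A, CSF1 and CSF3 had larger responses in the YAP(5SA) line, by 0.62, 0.85 and 0.83, where with IL-1b the differences were -0.26, 0.20 and -0.65.

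The size rule asked for a difference of at least 1 where one or both lines had a response that large. By it, 2 of the 8 genes responded less in the YAP(5SA) line with IL-1b (TNF and IL1A, against 1.36% of all genes) and 1 with TNFa (TNF, against 0.478%). In the other direction it held for 0 of the 8, against 0.308% of all genes with IL-1b and 1.1% with TNFa. These shares include genes without a response of at least 1, which cannot meet the rule. The share among responding genes was not computed. A test was added after seeing the data, with 1 term for a line difference in the response to any cytokine. It leaves 1 residual degree of freedom and assumes the same difference for IL-1b and TNFa. TNF gave -1.39 ± 0.40 (adjusted p = 0.521, limma, 95% interval -2.20 to -0.57) and IL1A -1.40 ± 0.46 (adjusted p = 0.670, limma, 95% interval -2.36 to -0.44). Their unadjusted p was 0.00173 and 0.00594. Of the 8 genes 0 passed the adjusted threshold, where 0.0891% of all genes were called higher and 0.081% lower. An unadjusted p under 0.05 was found for 2 of the 8 and for 4.69% of all genes. The interval of LTB was -0.59 to 1.04.

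**Figure D5:**
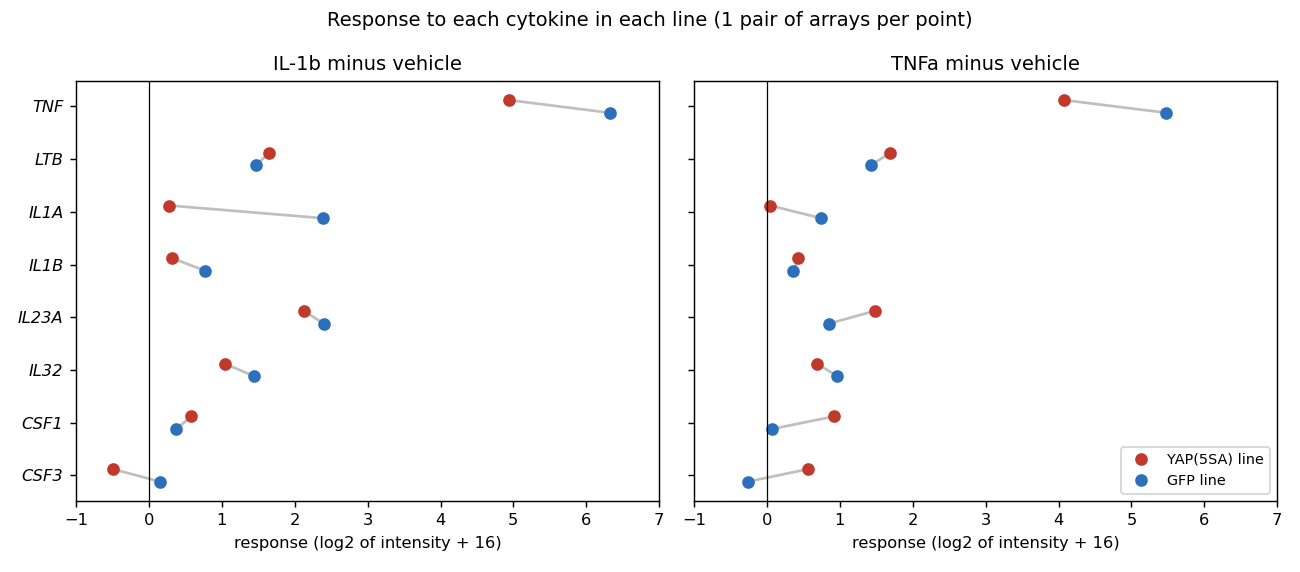
Response (log2 of intensity + 16) to IL-1b and to TNFa of the 8 cytokine genes in the YAP(5SA) line (red) and the GFP line (blue), each point 1 pair of arrays. TNF is lower in the YAP(5SA) line with both cytokines (4.94 against 6.32 and 4.08 against 5.48), IL1A with IL-1b (0.28 against 2.38), and LTB at 1.65 against 1.46 and 1.69 against 1.42.

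Receptors and antagonists, processing enzymes and related cytokines were taken as 3 further lists. Of their 41 genes, 25 passed the filter, and by limma 0 of the 25 passed the test with IL-1b or with TNFa. As only 1.32% and 0.688% of all genes were called higher, and 1.04% and 0.081% lower, a list of this size would hold few or no calls at those shares. At an unadjusted p under 0.05, 1 was higher and 1 lower with IL-1b, against 6.9% and 8.18% of all genes. With TNFa 1 was higher, against 2.6% of all genes. The lower one was CASP1, the protease that cuts pro-IL-1b, with -0.89 (adjusted p = 0.0502), and the higher one was IL27, with 0.85 for IL-1b (adjusted p = 0.0739) and 0.68 for TNFa (adjusted p = 0.595).

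Between the lines 4 of the 25 were lower and 2 higher in the YAP(5SA) line, where 8.91% of all genes were called lower and 7.9% higher. The higher count is near that share. Of 9 receptors and antagonists 2 fell: IL1R1, the signalling receptor of IL-1, by 1.25 (adjusted p = 1.0e-05, limma) and IL1R2, its decoy receptor, by 0.84 (adjusted p = 0.00228, limma). The vehicle pair of IL1R1 gave -1.06, the IL-1b pair -1.47 and the TNFa pair -1.22, so that it was lower in each pair. The TNF receptor gene TNFRSF1A gave 0.24 (adjusted p = 0.523). Of 6 processing genes CASP4, an inflammatory caspase, fell by 1.68 (adjusted p = 9.2e-08, limma). Of 10 related cytokines the death ligand TNFSF10 fell by 2.78 (adjusted p = 9.1e-14, limma), whereas the stem cell factor KITLG rose by 0.71 (adjusted p = 0.0129, limma) and IL3 by 0.59 (adjusted p = 0.0416, limma). The median line difference was -0.01, -0.27 and 0.21 in these 3 lists, against -0.01 over all genes.

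For each of the 5 genes that passed a test, the 3 genes with the most similar levels over the 6 arrays were sought among 3695 genes that spanned at least 1 on the log2 scale. The 6 arrays are the same for all genes, and with so few many genes reach a high Pearson r: 25 exceeded 0.95 for TNF. TNF was closest to the chemokine CCL20 (r = 0.994), to GCH1, the first enzyme of tetrahydrobiopterin synthesis (0.993), and to NFKB2 (0.990). LTB was closest to the neutrophil chemokines CXCL8 (0.996), CXCL1 (0.990) and CXCL3 (0.977). IL23A was closest to the ribonuclease ZC3H12A (0.985), CD244 (0.984) and TEX13C (0.984), IL32 to KCNG2 (0.986), GALR1 (0.981) and TACR1 (0.980), and IL1A to ICAM4 (0.972), KCNJ18 (0.949) and NRROS (0.939). Among the 8 genes themselves, TNF and LTB had r = 0.949 and IL1A and IL1B r = 0.923, while CSF3 and TNF had r = 0.00.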

How the data were processed

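The authors deposited 1 table of linear probe intensities from 6 arrays of 1 colour, whose values were background-subtracted, as between 10 and 1146 probes per array lay below 0. Per the labels' protocols, RNA was taken with Trizol, amplified as amino-allyl aRNA and labelled with Cy5. The scaling method is not stated in the labels, and no detection flags were in the table. The number of arrays limits the precision. Of 28264 probes 25893 had 1 gene, 0 several and 2371 none. All gene identifiers matched RefSeq, used for current symbols.

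Intensities below 0 were set to 0, 16 was added and log2 taken. The dimmest 40% of named probes by mean log2 value (a limit of 206.0) were left out and the brightest probe stood for its gene. Treatment and line entered limma 3.58.1 (R 4.3.3) as additive terms (lmFit, eBayes, Benjamini-Hochberg at 0.05; 2 residual and 34.3 prior degrees of freedom) and the fit was tested on simulated data. Alternatives were scaling, filter, pseudocounts, probe averaging, the prior and leaving out each array. Members, gene lists and tests were chosen with earlier results of these data known. All 9 genes were named, with up to 4 genes per list by size and the 3 most alike genes. A planned comparison of protein sequences was not run.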

Additional observations from a re-analysis of the deposited data

Results flagged for a closer look

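CSF3 gave responses of opposite sign in the 2 lines. With IL-1b its response was -0.49 in the YAP(5SA) line and 0.16 in the GFP line, a difference of -0.65. With TNFa it was 0.57 in the YAP(5SA) line and -0.27 in the GFP line, a difference of 0.83. Each value is 1 pair of arrays, and the difference for a single cytokine was not tested. The fitted SD of CSF3 was 0.28 and its residual SD 0.53. Both responses in the GFP line were smaller than the fitted SD. Only the TNFa response in the YAP(5SA) line exceeded the residual SD. The term pooled over both cytokines gave 0.09 (adjusted p = 0.952, limma). It assumes the same difference for both, so that opposite differences cancel in it and it cannot decide on them.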

How the results depend on the processing

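With 1 array per condition, a call rests on 2 or 3 pairs and a single array can end it. The IL-1b count of 5 genes called higher became 3 with no filter on dim probes, with the dimmest 60% left out (LTB, IL1A and IL1B are then not tested) and with the mean of all probes, and ran from 3 to 5 without single arrays. The TNFa count of 3 ran from 2 to 3. The line count of 3 lower genes became 1 with median centring, with no filter and with the dimmest 60% left out, and ran from 0 to 2 without single arrays. Its count of 0 higher genes became 1 with quantile normalization and with median centring. For IL-1b minus TNFa the count of 0 became 1 with the dimmest 60% left out, with a pseudocount of 64 and with a trended and robust prior, and ran from 0 to 2 without single arrays. For the response difference with IL-1b, 2 lower genes became 1 at a size limit of 2. With TNFa, 1 lower gene became 2 at 0.58 and 0 at 2, and 0 higher genes became 2 at 0.58. No called value changed sign. Fits that leave 1 array in an arm assume that it varies like the others. Why calls were lost was not tested, except that fewer genes enter at 60%.

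Over all genes, the 163 higher and 129 lower calls with IL-1b became 50 and 8 with no filter and 70 and 10 with the mean of all probes, and the lower ones 244 with a trended and robust prior. The 85 higher calls with TNFa became 29 and 44 in the first 2 of these settings, and the 10 lower ones 2 with either scaling and 1 with the mean of all probes. The 1101 lower calls between the lines became 689 with the dimmest 60% left out. For IL-1b minus TNFa, 2 higher and 1 lower became 5 and 39 with the dimmest 60% left out, 8 and 16 with a pseudocount of 64, and 9 and 123 with a trended and robust prior, while the higher ones became 0 with either scaling, no filter, the mean of all probes and a pseudocount of 1. Without single arrays, IL-1b gave 44 to 328 higher and 9 to 364 lower calls. The TNFa calls became 41 higher without the GFP vehicle array and 33 lower without the TNFa array of the YAP(5SA) line. The lines gave 497 higher and 526 lower without the IL-1b pair. Without the TNFa array of the YAP(5SA) line, IL-1b minus TNFa gave 255 higher and 248 lower. The labels give no replicate numbers, so the fit has no block beyond line and treatment. The pairs named in the text are arrays matched by line or by treatment through the additive terms of the fit.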
